A study of Homo sapiens with 7 samples.

Results

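miR-483 and miR-675 are the miRNAs of the imprinted IGF2/H19 locus at the tip of the short arm of chromosome 11. Their 4 mature arms, hsa-miR-483-3p, hsa-miR-483-5p, hsa-miR-675-5p and hsa-miR-675-3p (written without the species prefix from here on), were taken by name from the 2656 mature miRNAs of the count table. The libraries were small RNA-seq of small extracellular vesicles (sEVs) from HepG2, a human liver cancer cell line. The cells expressed either a hairpin RNA with a control sequence (shCTR, 3 libraries) or one directed at SYNCRIP (shSYNCRIP, 4 libraries), an RNA-binding protein that loads miRNAs into sEVs. Per the methods of the study, knockdown used a lentiviral hairpin, infected cells were selected with puromycin, and inducible hairpins were switched on with doxycycline. The delivery of the control hairpin is not spelled out there. A single SYNCRIP hairpin sequence is given. The sEVs were pelleted from medium with vesicle-depleted serum, and the titles call the libraries biological replicates. The table holds miRNAs alone, so the knockdown of SYNCRIP, the IGF2 mRNA and the H19 transcript were not measured in it.

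IGF2 encodes a fetal growth factor that is made from the paternal allele, and H19 is a long noncoding RNA made from the maternal allele. The genes share enhancers and an imprinting control region, are abundant in fetal liver, and are often active again in liver tumours. miR-483 is processed from an intron of IGF2 and is known as an oncogenic miRNA whose 3p arm represses the apoptosis gene BBC3 (PUMA). miR-675 is cut from the first exon of H19, and its release from H19 is regulated, so that abundant H19 need not give abundant miR-675. A hairpin gives 2 arms, 5p and 3p, of which one is usually kept and loaded into Argonaute.

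In GENCODE release 29 (GRCh38) the MIR483 hairpin lies on the minus strand at chr11:2134134-2134209. It overlapped 0 annotated exons of IGF2 (chr11:2129112-2149603) and lay in the stretch from 2133675 to 2135366 that is intronic in the 9 of 11 IGF2 transcripts spanning it. The MIR675 hairpin lies on the same strand at chr11:1996759-1996831, inside exon 1 of 4 of the 5 spanning transcripts of H19 (chr11:1995176-2001470). The hairpins are 137302 bases apart. Of the 4 arms, 2 had an entry in the RefSeq sequence table (GRCh38.p14), those of miR-675. They are shown, 5′ to 3′, because they are the sequences whose reads were looked for and not found. In the hairpin the capitals mark the 5p arm and then the 3p arm. In the mature miRNAs the capitals mark the seed, bases 2 to 8. The last line is miR-4466 of chromosome 6, the 1 other miRNA in the table with the seed of miR-675-5p.
MIR675 hairpin: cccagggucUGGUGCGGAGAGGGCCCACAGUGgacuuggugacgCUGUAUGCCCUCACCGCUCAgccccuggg
hsa-miR-675-5p: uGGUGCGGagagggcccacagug
hsa-miR-675-3p: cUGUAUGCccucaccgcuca
hsa-miR-4466: gGGUGCGGgccggcgggg
The 3p seed of miR-675 was shared with 0 other miRNAs. The hEXO motif that SYNCRIP binds (3 bases other than C, then a base other than U, an A or U, and a G or C) was searched on the miRNA strand after base 7. It had 0 matches in either arm of miR-675, whereas 63.6% of the 2370 mature miRNAs of the table held it.

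Depth and label checks came first. The libraries held from 29863 (shSYNCRIP replicate 2) to 388226 (shCTR replicate 3) miRNA counts, and 117 miRNAs passed the filter on low counts. In shSYNCRIP replicate 4 the 114983 counts fell on 100 miRNAs, against 180 to 275 miRNAs in each other library. Markers of the labelled liver origin were present in part. miR-122-5p, the most abundant miRNA of hepatocytes, had 313 to 1664 counts in every library, miR-192-5p had at most 1, and miR-122-3p and miR-885-5p were at 0 throughout. The 6 hepatocyte markers together took 0.523% to 1.01% of counts in shCTR and 0.272% to 1.49% in shSYNCRIP. The 8 blood cell markers, led by miR-486-5p, all had counts and took 10.9% to 19.9% in shCTR and 8.85% to 13.9% in shSYNCRIP. By limma-voom 0 of the 3 hepatocyte markers tested and 2 of the 6 blood cell markers tested (miR-451a and miR-142-5p, both lower in shSYNCRIP) met the criteria of the study given below, against 17.9% of all miRNAs tested, or 12.8% in the downward direction. The log2 fold change of miR-451a was -3.62 by limma-voom and 0.60 by edgeR's quasi-likelihood test, so its direction depended on the test. Their part in the results was not tested.

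The miR-483 arms were among the abundant miRNAs of HepG2 sEVs, and miR-675 was not detected. Over the 7 libraries miR-483-3p averaged 9195 CPM (counts scaled to library size with TMM factors) and ranked 27 of the 406 miRNAs with any count, and miR-483-5p averaged 6626 CPM and ranked 34. miR-483-3p had counts in 7 of 7 libraries, as 65 miRNAs did, and miR-483-5p in 5 of 7. Both arms of miR-675 had 0 counts in 7 of 7 libraries, as did 84.7% of all miRNAs in the table.

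**Figure D1:**
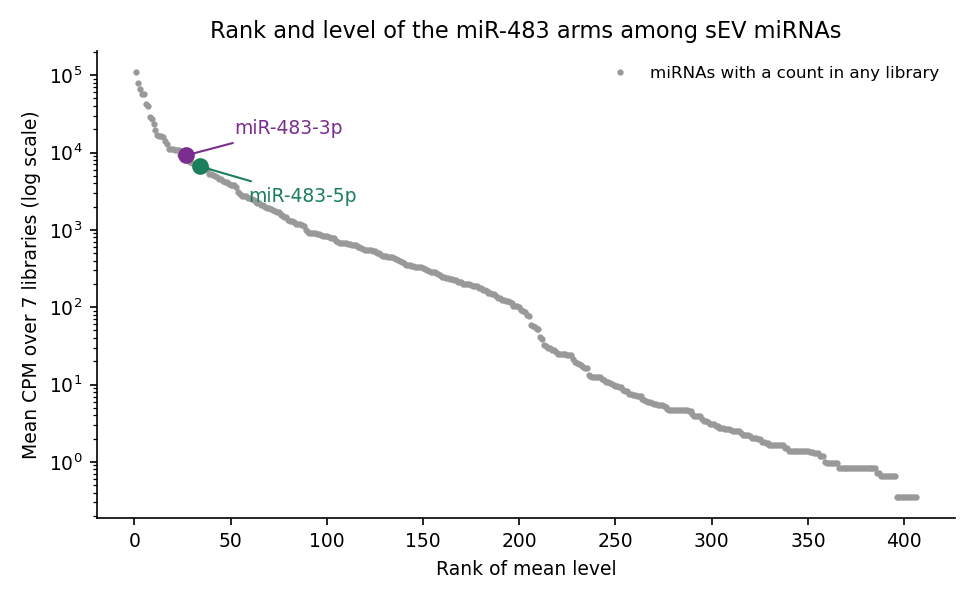
Mean CPM over the 7 libraries (log scale) against rank for the 406 miRNAs with a count in any library, with the miR-483 arms marked. miR-483-3p stands at rank 27 and miR-483-5p at rank 34, and the miR-675 arms have no place on the curve.

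The order of levels around miR-483-3p was not resolved. Just above it stood miR-199a-3p and miR-199b-3p, at 9214 CPM each, which carry the same values in every library and so cannot be told apart. Just below stood miR-99a-5p at 7994 CPM and miR-451a at 7502 CPM. miR-483-3p ranged from 2980.4 to 22494 CPM between libraries and miR-99a-5p from 4940.2 to 10474, so these neighbours did not differ beyond their spread. The level of a miRNA in such libraries also depends on how well its ends are ligated, which was not tested.

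miR-675, the H19 product, gave a limit instead of a level. A count of 0 allowed each arm up to 0.000773% of counts (7.73 CPM) in the deepest library and up to 0.0100% (100.5 CPM) in the shallowest. These limits and the intervals given below cover counting error and nothing else, because reads copied by PCR do not each stand for a molecule. The miR-483 arms together had 2570, 1809 and 5080 counts in shCTR replicates 1 to 3 and 508, 152, 8231 and 1659 in shSYNCRIP replicates 1 to 4. Against the floor of 3 counts per library, sEV counts of the miR-483 arms were at least 50.7-fold higher than those of miR-675 in shSYNCRIP replicate 2. In shSYNCRIP replicate 3 they were at least 2744-fold higher. The hairpins themselves were not measured. With miR-675 at 0 throughout, the sign of this ratio is fixed in every library that holds miR-483, so these bounds are given without a test. In the shCTR libraries, the background without silencing, the bound was 857-fold, 603-fold and 1693-fold. miR-675 could not be compared between shCTR and shSYNCRIP, and a loss of miR-675 below these limits was not detectable at this depth. miR-4466, with its shared 5p seed, had 1 count in all.

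miR-483-3p, the BBC3-repressing arm, did not differ between shCTR and shSYNCRIP sEVs beyond the spread between libraries. In shCTR it had 1356, 1706 and 2389 counts in replicates 1, 2 and 3, which were 1.27%, 1.16% and 0.615% of the library. In shSYNCRIP it had 508, 152, 4906 and 373 counts in replicates 1 to 4, or 0.337%, 0.509%, 2.04% and 0.324%. Thus 3 shSYNCRIP libraries lay below every shCTR library and the remaining one, replicate 3, lay above every one, so the groups overlapped. The 95% Wilson intervals for counting error were narrow beside this spread, for example 1.98% to 2.09% in shSYNCRIP replicate 3 and 0.309% to 0.367% in replicate 1. After scaling, shCTR averaged 10149 ± 3722 CPM (SD, n = 3). The shSYNCRIP libraries averaged 8480.2 ± 9379 CPM (SD, n = 4). In bulk sEV preparations, fewer vesicles that carry a miRNA and less of it per vesicle cannot be told apart.

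**Figure D2:**
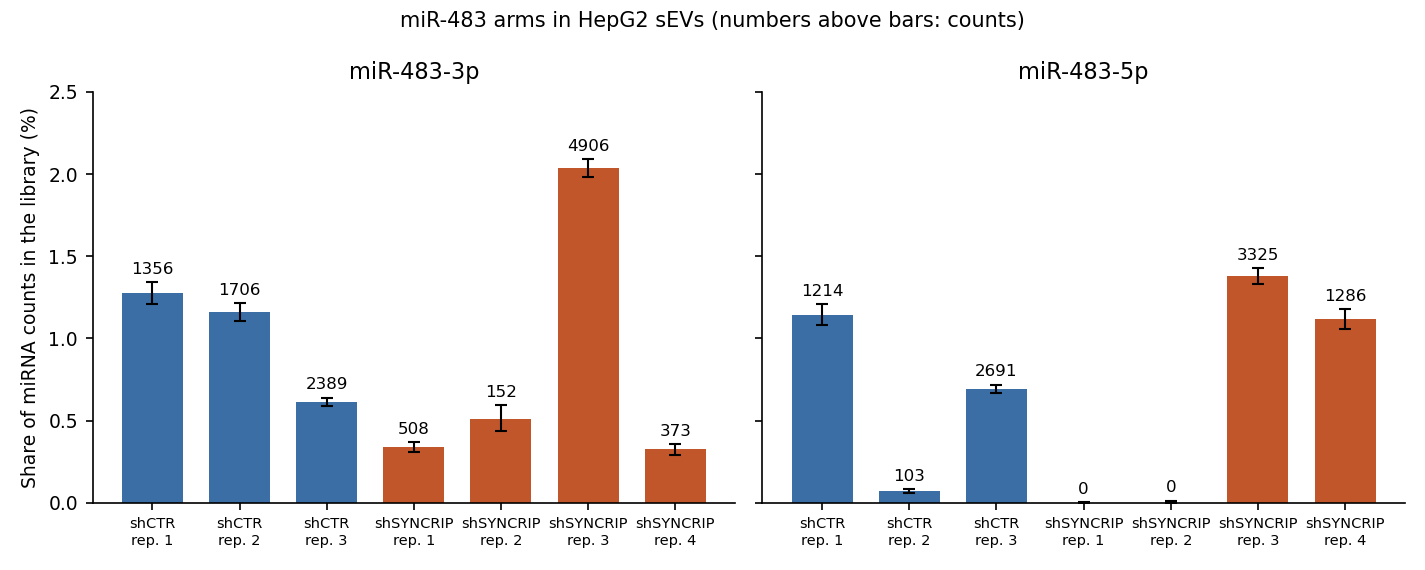
Share of all miRNA counts (%) of miR-483-3p (left) and miR-483-5p (right) in each library, blue for shCTR and orange for shSYNCRIP, with the counts above the bars. Error bars are 95% Wilson intervals for counting error. miR-483-3p is highest in shSYNCRIP replicate 3 and lower in the other 3 shSYNCRIP libraries than in every shCTR library, and miR-483-5p is at 0 in shSYNCRIP replicates 1 and 2.

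Whether silencing lowered the arm was asked with limma-voom, the test of the study, over all 117 miRNAs. The log2 fold change of miR-483-3p was -0.09 (standard error 0.84, 95% interval -1.77 to 1.59, nominal p 0.913, adjusted p 0.992). The interval runs from a marked fall to a marked rise, so a change of either kind was not detectable here. edgeR's quasi-likelihood test gave -0.22 (adjusted p 0.983) and DESeq2 gave -0.33 (adjusted p 0.983). shSYNCRIP replicate 3 moved the value most. Without it the limma-voom log2 fold change was -1.64 (95% interval -3.95 to 0.67, nominal p 0.163), and without shSYNCRIP replicate 1 it was 0.27 (nominal p 0.751).

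miR-483-5p, the other arm of the same hairpin, met the criteria of the study (a fold change beyond 0.5, read here as log2, with a nominal p under 0.1), but the result turned on single libraries and on the test. It had 1214, 103 and 2691 counts in shCTR replicates 1, 2 and 3, or 1.14%, 0.0701% and 0.693% of the library. In shSYNCRIP it had 0, 0, 3325 and 1286 counts in replicates 1 to 4, or 1.38% and 1.12% where it was present. Hence 2 shSYNCRIP libraries lay below every shCTR library and replicate 3 lay above every one. Replicate 4 lay between shCTR replicates 3 and 1 by share, but above every shCTR library after scaling, at 12055 CPM against at most 11683 CPM in shCTR. At the depth of shSYNCRIP replicate 1, where it was at 0, the lowest shCTR share would have given 106 counts and the mean shCTR share 957 counts. At the depth of shSYNCRIP replicate 2, also at 0, these shares would have given 20.9 and 190 counts.

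The direction of the miR-483-5p difference depended on the scale. The shCTR libraries averaged 6359.6 ± 5504 CPM (SD, n = 3) and the shSYNCRIP libraries 6825 ± 7988 CPM (SD, n = 4), which is higher by 466 CPM in shSYNCRIP. On the log2 CPM scale, where a 0 weighs far more, its mean was 11.89 ± 2.15 (SD, n = 3) and 8.65 ± 5.87 (SD, n = 4), a shSYNCRIP minus shCTR value of -3.25. By limma-voom the log2 fold change of miR-483-5p was -4.05 (standard error 2.08, 95% interval -8.21 to 0.11, nominal p 0.0559, adjusted p 0.440). The quasi-likelihood test of edgeR gave 0.16 (nominal p 0.934, adjusted p 0.983) and DESeq2 gave 0.021 (adjusted p 0.993).

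Of the 4 arms, 2 passed the filter on low counts and 1 of them, miR-483-5p, met the criteria of the study, against 17.9% of all 117 miRNAs tested. In the downward direction the share was 12.8%. With limma-voom 0 of the 2 had an adjusted p under 0.05, against 2.56% of all tested. With the quasi-likelihood test 0 of the 2 did, against 0% of all tested, 1.71% having an unadjusted p under 0.05. With DESeq2 0 of the 2 did, against 2.8%. Neither arm parted the groups without overlap, as 6.84% of the miRNAs tested did. miR-483-5p was one of 3 miRNAs, among the 21 that met the criteria, whose log2 fold change had opposite signs in limma-voom and the quasi-likelihood test. Over all 117 tested, 28 had opposite signs.

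**Figure D3:**
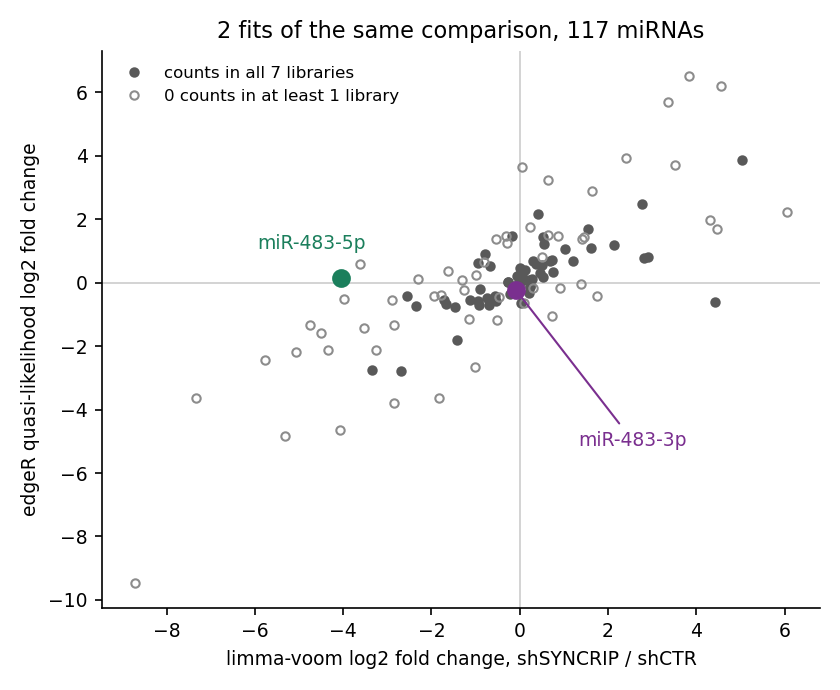
Log2 fold change of shSYNCRIP over shCTR by limma-voom (x axis) and by the quasi-likelihood test of edgeR (y axis) for the 117 miRNAs tested, open circles for those with 0 counts in at least 1 library. miR-483-3p lies near 0 in both fits, at -0.09 and -0.22, and miR-483-5p lies at -4.05 and 0.16.

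Leaving out each library in turn moved miR-483-5p between -6.20 (without shSYNCRIP replicate 4, nominal p 0.0171 in limma-voom) and -0.50 (without shSYNCRIP replicate 1, nominal p 0.799). It no longer met the criteria without shCTR replicate 1 (-3.57, nominal p 0.150), shCTR replicate 3 (-2.64, nominal p 0.276), shSYNCRIP replicate 1 or shSYNCRIP replicate 2 (-2.65, nominal p 0.287). Without shSYNCRIP replicate 3 the limma-voom value was -5.87 with an adjusted p of 0.0482, when 8.65% of the 104 miRNAs tested had an adjusted p under 0.05.

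**Figure D4:**
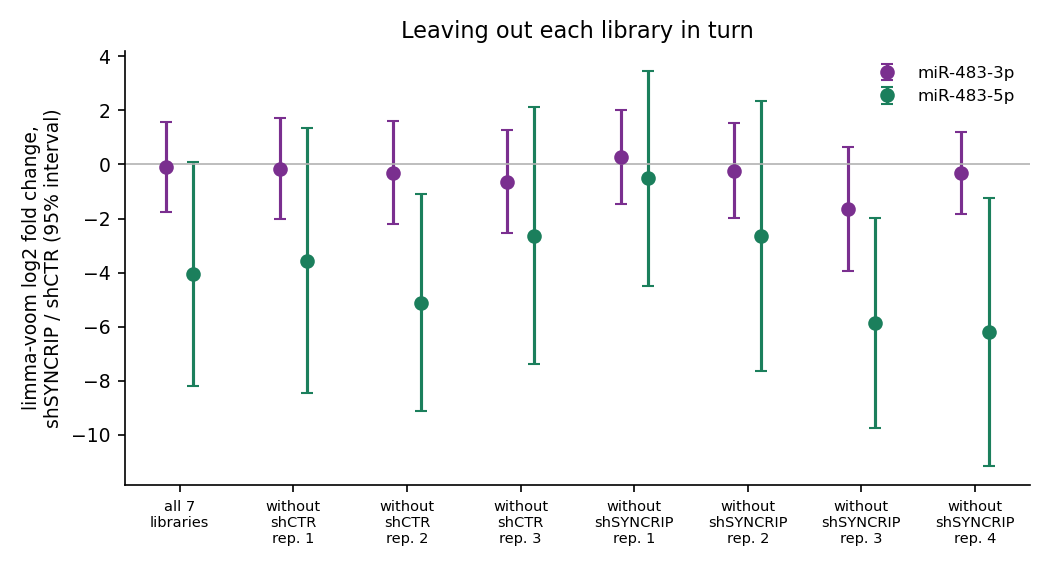
limma-voom log2 fold change of shSYNCRIP over shCTR with its 95% interval for miR-483-3p and miR-483-5p, with all 7 libraries and with each left out. The values of miR-483-5p run from -6.20 to -0.50 and those of miR-483-3p from -1.64 to 0.27, and every interval of miR-483-3p includes 0.

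The arms were then compared with each other inside each library, where scaling between libraries plays no part. The 5p arm made up 47.2%, 5.69% and 53.0% of the miR-483 counts in shCTR replicates 1, 2 and 3. In shSYNCRIP it made up 0%, 0%, 40.4% and 77.5% in replicates 1 to 4. The major arm was thus 3p in 5 libraries and 5p in 2, shCTR replicate 3 and shSYNCRIP replicate 4. By the floor of 3 counts, the 0 of 508 counts in shSYNCRIP replicate 1 allows a 5p share of up to 0.591%, and the 0 of 152 in replicate 2 up to 1.97%. The exact two-sided 95% intervals, a wider limit, end at 0.724% and 2.40% in these libraries. In shSYNCRIP replicate 4 the exact 95% interval was 75.4% to 79.5%, and in shCTR replicate 2 it was 4.67% to 6.86%.

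Neither the arms nor the groups parted by more than the libraries did. The 5p share averaged 35.3% ± 25.8 (SD, n = 3) in shCTR and 29.5% ± 37.3 (SD, n = 4) in shSYNCRIP. The log2 ratio of 5p to 3p, with 1 count added to each, was -1.34 ± 2.34 (SD, n = 3) in shCTR and -3.76 ± 5.18 (SD, n = 4) in shSYNCRIP. These means differed by -2.42 (exact permutation test over 35 splits, two-sided, p = 0.457). Over all 7 libraries the mean log2 ratio was -2.72 (two-sided exact sign-flip permutation test, p = 0.172), with 3p above 5p in 5 of 7 libraries. Summed over the libraries of a group, the arms stood at 4008 counts of 5p and 5451 of 3p in shCTR and 4611 and 5939 in shSYNCRIP. The summed counts of both arms took 1.65% ± 0.663 (SD, n = 3) of the library in shCTR and 1.43% ± 1.41 (SD, n = 4) in shSYNCRIP.

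**Figure D5:**
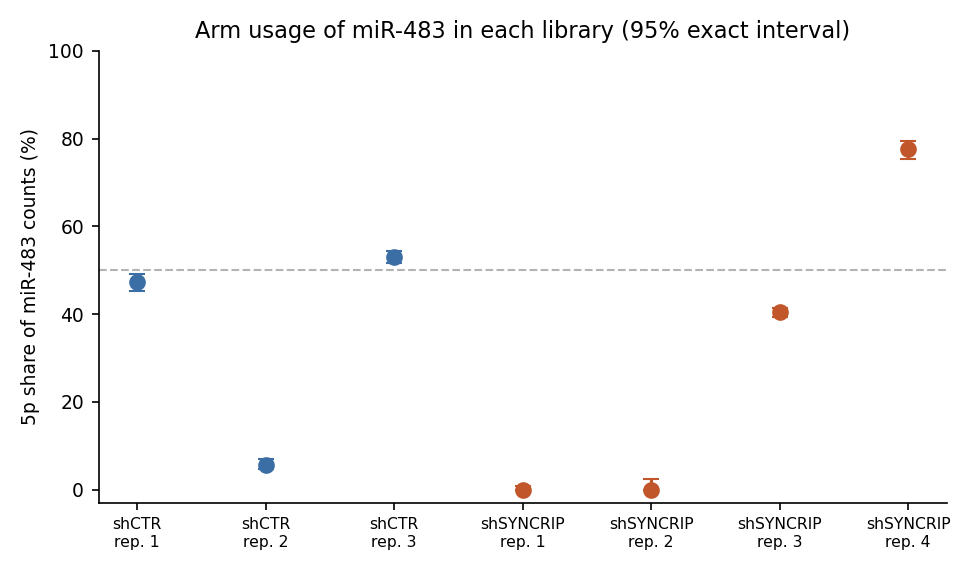
Share of the 5p arm among all miR-483 counts (%) in each library, blue for shCTR and orange for shSYNCRIP, with exact 95% intervals for counting error and a dashed line at 50%. The share runs from 0% in shSYNCRIP replicates 1 and 2 to 77.5% in shSYNCRIP replicate 4, and the shCTR libraries span 5.69% to 53.0%.

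Such swings between arms were not particular to miR-483. Among the 863 pairs of arms in the table, 7 had at least 10 counts over both arms in every library and at least 10 counts of each arm somewhere. Of these, 4 changed their major arm between libraries, miR-151a, miR-574, miR-483 and miR-25, and 0 had counts of both arms in every library. The 5p share of miR-25 ran from 0% to 51.8%, so its major arm changed by a narrow margin. miR-483 had the third widest range of the 5p share, 77.5 percentage points, after miR-151a (99.0) and miR-574 (81.8). The other hairpins of the 7 were let-7d, miR-423 and miR-27b, which kept one major arm.

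The counts of the miR-483 arms were also either 0 or at least 103. Of their 14 values, 2 were 0, 0 lay between 1 and 99, and 12 were at least 103. The smallest above 0, miR-483-5p in shCTR replicate 2, was 0.0701% of its library and lay close to the cutoff of 100. Over the 117 miRNAs tested, 10.5% of values were 0, 27.8% lay between 1 and 99 and 61.7% were at least 100. Most of these had a lower mean level than the miR-483 arms, so the share between 1 and 99 is not a matched comparison. Among the 20 miRNAs nearest to miR-483-5p in rank, 6 had a library at 0 and 1 had 2 or more such libraries. Among all 74 miRNAs that reached 1000 counts in some library, as both miR-483 arms did, 36.5% had a library at 0 and 20.3% had 2 or more.

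The miRNAs with the most similar order of log2 CPM to miR-483-3p over the 7 libraries were let-7d-5p (Spearman's rho 0.857), miR-320a-3p (0.786), miR-224-5p (0.778), miR-25-3p (0.750) and miR-10b-5p (0.679). miR-224-5p had 0 counts in 3 of the 7 libraries, so those are tied, and miR-10b-5p had as few as 1 count. With 7 libraries that share scaling and depth these coefficients are descriptions. The partner arm miR-483-5p came at place 14 of this order, with a rho of 0.577.

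Among the other miRNA genes of the first 5 Mb of chromosome 11, reads came almost wholly from miR-210. The RefSeq annotation places 9 miRNA genes there, MIR483 and MIR675 included, and the 7 others have 11 arms in the table, of which 3 had counts and 0 passed the filter. miR-210-3p, the main hypoxia-induced miRNA, had 2, 0 and 640 counts in shCTR replicates 1, 2 and 3 and 5, 1, 527 and 0 in shSYNCRIP replicates 1 to 4. It was therefore high in 1 library of each group, replicate 3 in both. miR-7847-3p and miR-4687-3p had 1 count each, and the arms of MIR6743, MIR6744, MIR4298 and MIR4686 had 0. miR-483, with 20009 counts in all, thus took most of the reads of this region, against 1175 for miR-210.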

How the data were processed

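The values are read counts for each mature miRNA, not normalized, as deposited by the authors, who made them by trimming adapters (FastqToolkit), removing short and low-quality reads (Cutadapt), keeping forward reads and counting them with MiRDeep2 against miRBase. The submitters' processing notes name GRCh38. The treatment of reads matching more than one miRNA is not given in the sources used here. Columns were matched to samples by group and replicate number in the titles. Titles name HepG2 for every sample, whereas a cell line field runs on from HepG2 in steps of 1.

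Values were computed with R 4.3.3, edgeR 4.0.16, limma 3.58.1, DESeq2 1.42.0 and Python 3.11.15. miRNAs kept by filterByExpr (117 of 2656) were scaled by TMM and compared with limma-voom, and with edgeR's quasi-likelihood test, run beside it, and p-values were adjusted by Benjamini-Hochberg over all miRNAs tested. Log2 CPM used a prior count of 2. Tests were tried on simulated counts. Alternatives were other scalings, filters and tests, sample quality weights, a replicate block, other added counts and leaving out each library. The 4 arms were named as members, neighbours were taken by rank and by correlation, and members and lists were chosen with earlier results of these data known. Same-numbered libraries were checked for pairing. Library totals from 29863 to 388226 limit rare miRNAs.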

Additional observations from a re-analysis of the deposited data

Results flagged for a closer look

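The share of miR-483-3p stood apart in shSYNCRIP replicate 3, at 2.04% of the library, against 0.324% to 0.509% in the other 3 shSYNCRIP libraries. The gap to the nearest library was 0.892 of the range of the group, above the 0.829 that Dixon's test sets for 4 libraries. Such a test singles out about 1 in 20 groups by chance, and 5 groups of values of the miR-483 arms were examined. The hepatocyte markers took 0.967% of the counts of this library, within the 0.272% to 1.49% of the other 3. The blood cell markers took 13.9%, the highest of the group, against 8.85% to 13.4% in the other 3. Among them miR-451a had 6279 counts, against at most 1042 in the other shSYNCRIP libraries, and miR-144-3p and miR-144-5p, with 138 and 188 counts, had 0 in the other 6 libraries. The part of these markers in the result was not tested.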

How the results depend on the processing

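For miR-483-3p the log2 fold change never met the criteria of the study. It stayed below 0 apart from the fit with a replicate block (0.55, nominal p 0.531 in limma-voom) and that without shSYNCRIP replicate 1, and leaving out a replicate moved it from -1.64 to 0.27. For miR-483-5p the limma-voom value of -4.05 became 0.16 with the quasi-likelihood test of edgeR, 0.021 with DESeq2 and -2.05 with the replicate block (nominal p 0.247), and -6.20 to -0.50 when a replicate was left out. It met the criteria under the other scalings, without a filter, with 1 CPM in 3 libraries and with sample quality weights (-5.96, nominal p 0.00773). It could not be tested with at least 10 counts in every library, because 2 libraries hold 0. The log2 ratio of miR-483 to miR-675 was 7.20 for the 5p arms alone, where 2 libraries hold 0 of both arms. Its size rests on the count added and its sign is fixed by the zeros of miR-675, so no test of it is given. Leaving out a replicate gave 10.23 to 11.19 for both arms, -4.26 to -0.67 for the group difference of the miR-483 arm ratio and -3.47 to -1.68 for its mean, and neither arm ratio passed its test. With 0.5 counts added in place of 1, the group difference was -2.91 and the mean -3.01. The number of miRNAs meeting the criteria changed from 21 of 117 to 87 of 406 without a filter. With at least 10 counts in every library it was 3 of 36. Of 117 tested it was 8 with the quasi-likelihood test, 11 with DESeq2 and 13 with the replicate block. Without a replicate it was 16 to 22. In the main fit 15 of the 21 were lower in shSYNCRIP, against 22 of the 87 without a filter. The quasi-likelihood test gave 0 miRNAs at an adjusted p under 0.05 in every fit. The cause of the differences between settings was not tested.

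Same-numbered libraries deviated together little (Pearson's r over the miRNAs tested of -0.06, -0.03 and 0.09 for numbers 1, 2 and 3). The titles do not say whether they were prepared together, and such coefficients cannot settle it. With the replicate block, the mean difference of the arm ratio over the 3 pairs was -4.26 (exact sign-flip permutation test, p = 0.25, the smallest possible). shSYNCRIP replicate 4 has no shCTR partner, so these pairs leave it out, and in the limma-voom fits the block takes up its values. Leaving out that library alone gave the same difference of the arm ratio, -4.26. miR-675 at 0 gave no value under any setting.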

Other observations

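Other imprinted loci were counted by lists written from general knowledge. The chromosome 19 cluster (C19MC), a placental and stem cell cluster that some liver tumours reactivate, had counts for 2 of 65 miRNAs in the table and took at most 0.00136% of a library. miR-296 and miR-298 of the GNAS locus had 0 counts for 3 of 3 entries. The 14q32 cluster had counts for 48 of 93 entries, and 6 were tested. By limma-voom 2 of the 6 met the criteria of the study downward, against 12.8% of all 117 tested, and 0 upward. The median log2 fold change was -1.66 over the 6 and -0.07 over all tested, a description with no test. It took 1.17% to 1.86% of the counts in shCTR and 0.417% to 1.41% in shSYNCRIP. miR-335-5p, from an intron of the imprinted MEST gene, had 4, 0 and 4 counts in shCTR replicates 1, 2 and 3 and 22, 111, 208 and 0 in shSYNCRIP replicates 1 to 4. By limma-voom miR-335-5p met the criteria upward (log2 fold change 4.56, nominal p 0.0713). Of all miRNAs tested, 17.9% met them in either direction and 12.8% downward, so fewer met them upward than downward. The miR-483 arms took 0.337% to 3.42% of a library. The 14q32 share was the higher in shCTR replicate 2 (1.63% against 1.23%), shSYNCRIP replicate 1 (1.16% against 0.337%) and shSYNCRIP replicate 2 (1.41% against 0.509%), and the miR-483 share was the higher in the other 4 libraries.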
